A study of Homo sapiens with 9 samples.

Results

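The CXC and CC inflammatory chemokines described here were 10 genes, CXCL1, CXCL2, CXCL3, CXCL5, CXCL8, CXCL10, CCL2, CCL5, CCL20 and CX3CL1, of the 58735 genes in the deposited table, and each was found by its gene symbol. They were chosen by the values of the higher drug dose, 1 µM, against DMSO, where CCL20 and CXCL8 were among the largest rises, so the values of that comparison are given for them as a description with no test. RNA-seq was performed in KHM-5M, an established human thyroid cancer cell line, after 24 h with DMSO, the vehicle, or with either of YK-4-279's doses, 0.3 µM or 1 µM, in 3 samples per group. YK-4-279's known use is as a small-molecule inhibitor of ETS transcription factors, and the comparison asks how gene expression moves with its dose. Only this line was sequenced, and nothing in the labels says that the samples of a group came from separate cultures, so p-values measure the spread between these samples, which may be technical.

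Chemokines are small secreted proteins that guide migrating cells through receptors of the G protein-coupled class. The CXC ligands with a Glu-Leu-Arg motif (CXCL1, CXCL2, CXCL3, CXCL5 and CXCL8) attract neutrophils through CXCR1 and CXCR2, and tumour cells, those of the thyroid included, are known to make them. CXCL10 acts on CXCR3, CCL2 on CCR2, CCL20 on CCR6, and CX3CL1, a membrane-anchored chemokine that can be shed, on CX3CR1. Their genes are classic targets of NF-κB, with AP-1 and C/EBP factors acting beside it, and many of their mRNAs carry AU-rich elements that make them short-lived.

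The letters shared by the promoters are shown first because the genes that were higher at 1 µM are in large part neighbours on chromosome 4. RefSeq promoters (GRCh38.p14, 250 bases before to 50 after the start) were matched for 7 of the 10 genes, CXCL1, CXCL2, CXCL3, CXCL5, CXCL8, CXCL10 and CCL20. In 6 of these 7 the letters GGAATTTCC, an NF-κB (κB) sequence, were found on one strand or the other, against 0.461% of all 35116 promoters in the table. Each is printed 5′ to 3′ on the gene's own strand with 15 bases on either side and the 9 matched letters in capitals.
CXCL8, chr4:73740463-73740501, plus strand: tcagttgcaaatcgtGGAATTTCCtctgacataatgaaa
CXCL1, chr4:73869300-73869338, plus strand: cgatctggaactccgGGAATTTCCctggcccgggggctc
CXCL5, chr4:73998744-73998782, minus strand: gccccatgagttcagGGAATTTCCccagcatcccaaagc
CXCL3, chr4:74038744-74038782, minus strand: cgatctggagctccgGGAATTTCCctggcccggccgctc
CXCL2, chr4:74099249-74099287, minus strand: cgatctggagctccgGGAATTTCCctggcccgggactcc
CXCL10, chr4:76023650-76023688, minus strand: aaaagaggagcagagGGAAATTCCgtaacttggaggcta
The match lay 91 bases before the RefSeq start in CXCL8, 78 in CXCL1, 90 in CXCL5, 78 in CXCL3 and 77 in CXCL2. In CXCL10 it was on the opposite strand, 176 bases before the start. The flanks of CXCL1, CXCL2 and CXCL3 are nearly the same letters, and those of CXCL5, CXCL8 and CXCL10 are not.

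CCL20, the gene with the largest change of the 10, lacked GGAATTTCC and held the looser κB letters GGAAAACCCC 79 bases before its start. Letters that fit the looser κB consensus, which overlaps GGAATTTCC, were found in 5.91% of all promoters. The 150 bases before the RefSeq starts of CCL20 and CXCL8 are printed because these 2 genes led the choice of the group, with the κB letters, TATAAA and, in CXCL8, TGACTCA in capitals.
CCL20, chr2:227813692-227813841, plus strand: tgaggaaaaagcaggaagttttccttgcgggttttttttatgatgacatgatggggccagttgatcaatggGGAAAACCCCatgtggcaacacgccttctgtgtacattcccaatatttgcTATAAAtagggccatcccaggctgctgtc
CXCL8, chr4:73740419-73740568, plus strand: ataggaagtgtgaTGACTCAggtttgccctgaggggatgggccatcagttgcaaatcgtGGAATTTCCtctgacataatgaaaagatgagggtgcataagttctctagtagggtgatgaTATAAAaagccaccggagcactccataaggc
The RefSeq starts of CCL20, CXCL8, CXCL5, CXCL3 and CXCL2 lie inside the gene models of the deposited table, which begin farther upstream, by the most in CCL20. The κB letters of CCL20, CXCL5, CXCL3 and CXCL2 therefore lie before the RefSeq start but inside those gene models. On both strands, TATAAA was found in 2 of the 7 promoters against 11.5% of all, the AP-1 letters TGANTCA in 1 (CXCL8) against 7.71%, and the C/EBP letters TTGCNNAA in 1 (CXCL2) against 10.5%. The ETS letters CCGGAAGT were in 0 of 7 against 4.14% of all, and the shorter AGGAAG in 6 of 7 against 33.6%. A match describes letters in this window and is not a binding site.

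The samples held 16903251 to 18238884 counts, so that 3 counts, the limit that a count of 0 allows, came to 0.164 to 0.177 CPM (counts scaled to library size). Reads of mitochondrial genes made up 2.84 to 3.44% of the counts, and no library stood apart in depth. Of the epithelial markers, KRT8 and KRT18 were abundant (means of 191.5 and 132.4 FPKM over the 9 samples), EPCAM and KRT19 were low (2.32 and 1.92 FPKM) and CDH1 had at most 5 counts. Of the thyroid markers PAX8 was well expressed, and TG (at most 4 counts), TSHR (at most 2) and SLC5A5 (at most 1) were near 0 in all 9 samples.

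The levels of the 10 genes, compared in FPKM, which scales reads by gene length and library size, spanned nearly 3 orders of magnitude. In DMSO, CXCL1, also called GROα, stood highest at 74.5 ± 1.32 FPKM (SD, n = 3) and CXCL8, interleukin-8, followed at 36.1 ± 2.12 FPKM. CXCL2 at 18.4 ± 1.60 FPKM and CXCL5 at 17.9 ± 2.20 FPKM overlapped each other, and CXCL3 was lower at 3.52 ± 0.586 FPKM. CCL5, CCL20, CXCL10 and CX3CL1, with means of 0.456, 0.433, 0.329 and 0.240 FPKM, could not be ordered, since neighbours in that order overlapped. CCL2, the monocyte attractant, had the lowest mean, 0.0843 FPKM, but its samples overlapped those of CXCL10.

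At 1 µM the order of the upper 5 was the same, but CCL20 stood at 2.89 ± 0.381 FPKM, above every sample of CCL5 and below every sample of CXCL3 (8.26 ± 0.710 FPKM). Among the 19951 protein-coding genes, CXCL1 moved from rank 450 by mean FPKM in DMSO to rank 193 at 1 µM. CXCL8 moved from 1086 to 383 and CCL20 from 11758 to 8514. Summed over the 10 genes, the level was 151.9 ± 7.18 FPKM in DMSO, 165.3 ± 20.9 FPKM at 0.3 µM and 327.3 ± 47.7 FPKM at 1 µM. The 5 Glu-Leu-Arg CXC genes made up 98.7 to 99.4% of this sum in every sample, so it describes them and not CCL20.

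**Figure D1:**
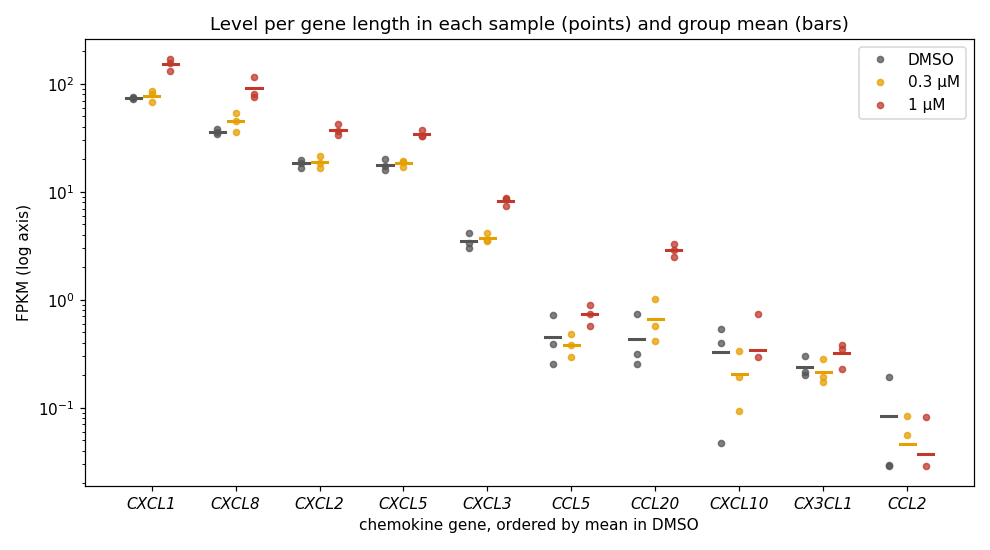
Level of each of the 10 chemokine genes in FPKM on a log axis, with 1 point per sample (3 per group) and colours for DMSO, 0.3 µM and 1 µM. CXCL1 is highest in every group, CCL20 at 1 µM (mean 2.89 FPKM) leaves the genes it overlapped in DMSO, and the samples at 0 (CXCL10 in 1, CCL2 in 2) are not drawn.

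The question at 0.3 µM was whether the chemokines already differed from DMSO at the lower dose, a comparison the choice of genes did not use although it shares its DMSO samples. None of the 8 genes tested was called (edgeR's quasi-likelihood test, Benjamini-Hochberg adjusted p of 0.995 for each), and over all 15762 genes tested 0 were called, or 0.0%. An unadjusted p under 0.05 was found for 594 genes, 3.77% of all, and for 1 of the 8, CXCL8, while DESeq2 called 1 gene, 0.00309% of the 32386 it tested, and none of the 10. In none of the 10 did the 0.3 µM samples all lie above those of DMSO, beside 3.16% of the 15762 genes tested. CXCL10 and CCL2 had too few counts to be tested. The median log2 fold change of the 8 was 0.05, beside 0.00 over all genes.

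CXCL8, the neutrophil attractant, had 1349, 1584 and 1379 counts in DMSO and 1860, 1481 and 2123 counts at 0.3 µM. The ranges overlapped, as 1 sample at 0.3 µM lay below the highest DMSO sample. Its log2 fold change was 0.32 (SE 0.11, 95% interval 0.09 to 0.55, unadjusted p = 0.0100), and without replicate 3 of 0.3 µM it was 0.18. The ratio of CXCL8 to CXCL1 in FPKM was 0.484 ± 0.0206 in DMSO and 0.576 ± 0.0703 at 0.3 µM, with no overlap, where an exact two-sided permutation test gave p = 0.10, the smallest that 3 against 3 samples allow. At 1 µM it was 0.594 ± 0.0859, overlapping the values at 0.3 µM. Ratios of other gene pairs were not tested, so nothing is read from this one.

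For CXCL1, CXCL2, CXCL3 and CXCL5 the log2 fold changes at 0.3 µM lay between 0.03 and 0.08. The intervals were -0.12 to 0.24 for CXCL1, -0.20 to 0.26 for CXCL2, -0.25 to 0.40 for CXCL3 and -0.17 to 0.24 for CXCL5, so a doubling lay outside each of them. CCL20, which draws immature dendritic cells and Th17 cells, had only 7, 9 and 20 counts in DMSO and 29, 12 and 16 at 0.3 µM. Its interval was wide, -0.34 to 1.59 around 0.63, the value ran from 0.19 without replicate 1 of 0.3 µM to 1.23 without replicate 3 of DMSO, and a difference of 2-fold was not excluded at this depth.

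At 1 µM against DMSO, CXCL1, CXCL2, CXCL3, CXCL5, CXCL8 and CCL20 were higher in each of the 3 treated samples than in any DMSO sample, which are the values that chose the group. CCL20 had 85, 69 and 88 counts at 1 µM against 7, 9 and 20 in DMSO. That is a 6.57-fold difference (log2 2.72, SE 0.32), and without replicate 3 of DMSO, the highest of that group, the log2 difference was 3.31.

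CXCL8 had 4853, 3009 and 3072 counts at 1 µM, 2.49-fold over DMSO (log2 1.31, SE 0.12). Replicate 1 stood above the other two, and without it the log2 difference was 1.11. The lowest 1 µM sample was still well above the highest DMSO sample, at 1584 counts.

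CXCL1 had 1640, 1779 and 1652 counts in DMSO, 1972, 1582 and 1841 at 0.3 µM and 4039, 2943 and 3405 at 1 µM, 2.02-fold over DMSO (log2 1.01, SE 0.079). CXCL2, a close paralog of CXCL1, had 433, 540 and 475 counts in DMSO, 495, 452 and 558 at 0.3 µM and 1178, 867 and 931 at 1 µM, also 2.02-fold (log2 1.02, SE 0.096). In both genes the DMSO and 0.3 µM samples overlapped and the 1 µM samples stood apart, with replicate 1 the highest.

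CXCL3, the third of the GRO genes, had 129, 168 and 115 counts in DMSO, 163, 141 and 138 at 0.3 µM and 351, 286 and 328 at 1 µM, 2.31-fold (log2 1.21, SE 0.13). CXCL5, also known as ENA-78, had 707, 937 and 748 counts in DMSO, 849, 778 and 863 at 0.3 µM and 1739, 1444 and 1415 at 1 µM, 1.90-fold (log2 0.92, SE 0.085). Again only the 1 µM group was separate. The canonical transcripts of CXCL1 and CXCL2 have 5.33% and 5.63% of their 50-base windows in common, those of CXCL2 and CXCL3 5.07% and 5.26%, and those of CXCL1 and CXCL3 0.533% and 0.585%, so only a small part of the reads could be split between them.

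The other 4 genes were at low counts in every group, as CCL20 was in DMSO and at 0.3 µM. CX3CL1, or fractalkine, had 22, 22 and 31 counts in DMSO, 30, 21 and 18 at 0.3 µM and 42, 36 and 23 at 1 µM, with a log2 difference of 0.40 (SE 0.30) from DMSO to 1 µM. CCL5, or RANTES, had 19, 7 and 10 counts in DMSO, 13, 8 and 10 at 0.3 µM and 25, 15 and 19 at 1 µM, with a log2 difference of 0.68 (SE 0.41). In both genes the 1 µM and DMSO samples overlapped. With 1 library left out, the log2 difference ran from 0.26 to 0.60 in CX3CL1 and from 0.40 (without replicate 2 of DMSO) to 1.19 (without replicate 1 of DMSO) in CCL5.

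CXCL10, an interferon-inducible attractant of T cells, had 11, 1 and 8 counts in DMSO, 7, 2 and 4 at 0.3 µM and 16, 6 and 0 at 1 µM. CCL2 had 1, 7 and 1 counts in DMSO, 2, 3 and 0 at 0.3 µM and 3, 1 and 0 at 1 µM. No difference between groups was detectable for either at this depth.

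**Figure D2:**
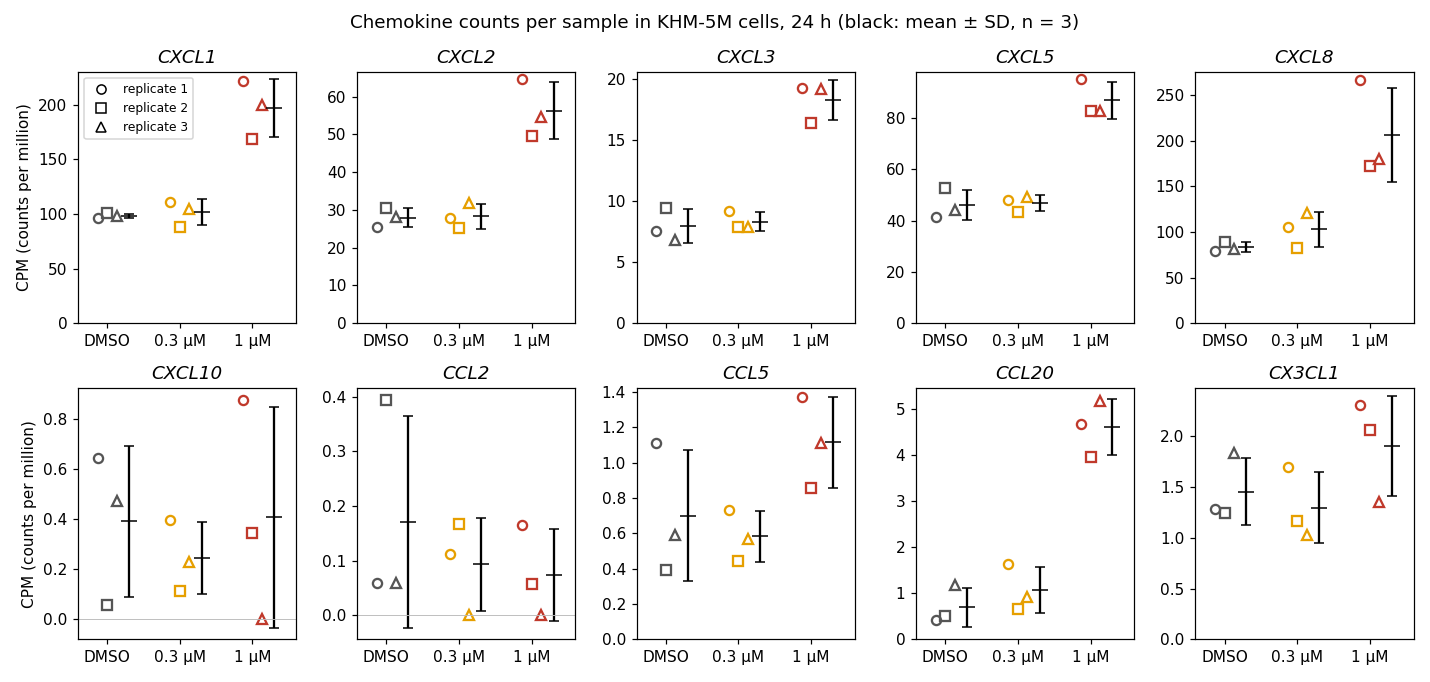
CPM of each of the 10 chemokine genes in the 9 samples, 1 panel per gene, with a point per sample and the group mean ± SD (n = 3) for DMSO, 0.3 µM and 1 µM. In CXCL1, CXCL2, CXCL3, CXCL5, CXCL8 and CCL20 the 3 samples at 1 µM lie above all others, and in CXCL10, CCL2, CCL5 and CX3CL1 the 1 µM and DMSO samples overlap.

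Of the 10 genes, 8 passed the filter on low counts at 1 µM against DMSO. The 1 µM and DMSO samples did not overlap, with 1 µM higher, in 6 of the 10, all 6 among the 8 tested, beside 16.7% of the 15617 genes tested. Because the genes were picked for this contrast, nothing is read from this count. A change in the number of cells that make a transcript and a change in the transcript per cell cannot be told apart in bulk RNA.

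Between the doses, 1 µM against 0.3 µM, the differences are likewise given without a test, since the 1 µM samples are those that chose the genes. The log2 differences were 2.10 (SE 0.28) for CCL20, 1.15 (SE 0.12) for CXCL3, 1.01 (SE 0.14) for CXCL8, 1.00 (SE 0.10) for CXCL2, 0.96 (SE 0.093) for CXCL1 and 0.90 (SE 0.078) for CXCL5. In these genes the step from 0.3 µM to 1 µM was larger than that from DMSO to 0.3 µM, which reached 0.63 for CCL20 and 0.32 for CXCL8. CCL5 differed by 0.94 (SE 0.38) and CX3CL1 by 0.56 (SE 0.32). The 2 dose groups did not overlap, with 1 µM higher, in 7 of the 10 genes, CCL5 being the seventh. All 7 were among the 8 tested, beside 15.3% of the 15583 genes tested.

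**Figure D3:**
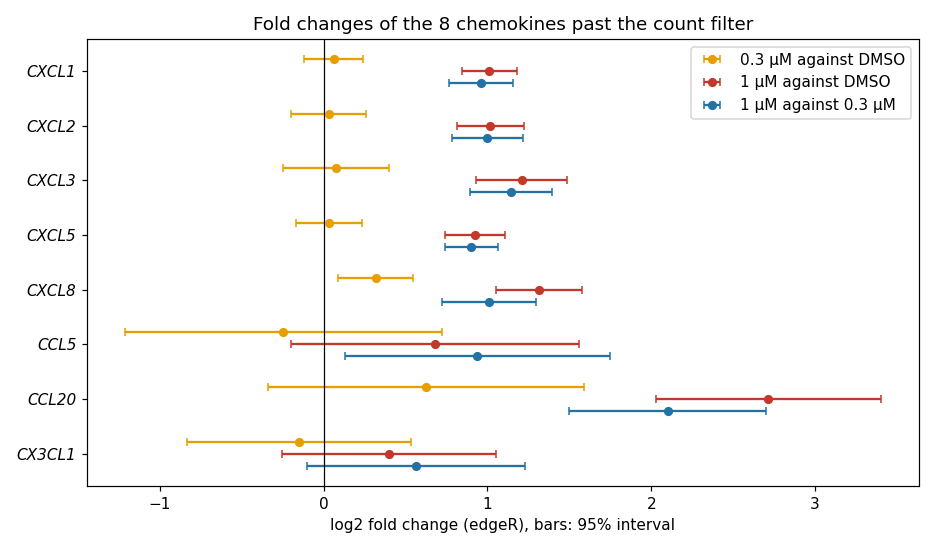
Log2 fold change with its 95% interval for the 8 tested chemokine genes in 3 comparisons, 0.3 µM against DMSO, 1 µM against DMSO and 1 µM against 0.3 µM. The 0.3 µM intervals include 0 for all but CXCL8 (0.09 to 0.55), and CCL20 has the largest difference at 1 µM, 2.72.

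Within groups, the CXC genes deviated from their group means to a varying degree together. As a description over 9 samples, in which all genes share a library and its depth, the deviations of log2 CPM had a Pearson r of 0.93 for CXCL2 and CXCL8, the highest of the 10 pairs among the 5 genes, and 0.35 for CXCL3 and CXCL8, the lowest. For CCL20 with the 5 CXC genes r ranged from -0.02 with CXCL3 to 0.50 with CXCL1. At 1 µM, replicate 1 had the highest CPM of CXCL1, CXCL2, CXCL5 and CXCL8. For CXCL3 replicates 1 and 3 were level at 19.2 CPM each, and for CCL20 replicate 3 was highest. The within-group SD of log2 CPM ran from 0.133 in CXCL5 and 0.152 in CXCL1 to 0.26 in CXCL8 and 0.54 in CCL20, whose counts were low.

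**Figure D4:**
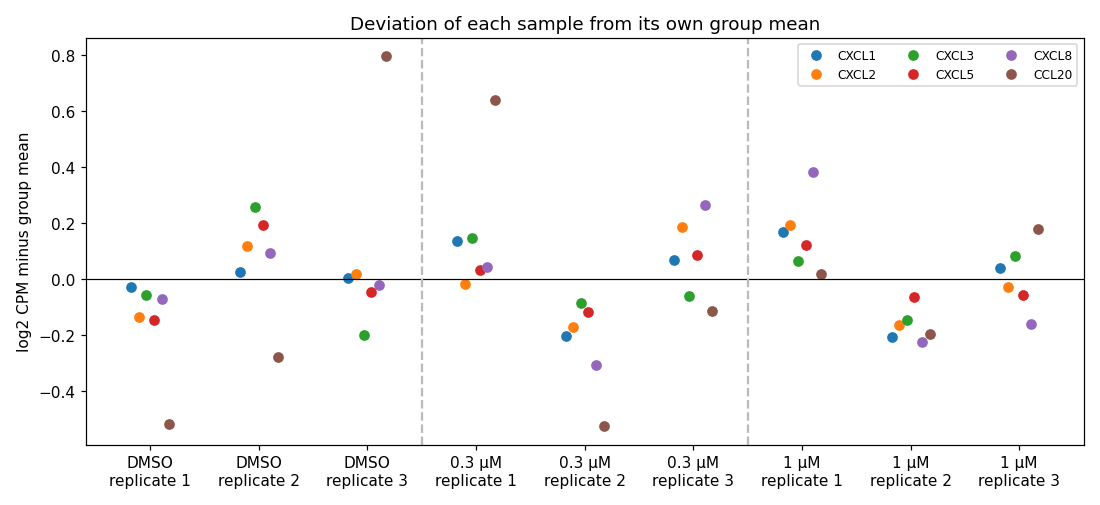
Deviation of each sample from its group mean, in log2 CPM, for CXCL1, CXCL2, CXCL3, CXCL5, CXCL8 and CCL20 in the 9 samples. All 5 CXC genes lie above the group mean in replicate 1 of 1 µM and below it in replicate 2, and the deviations of CCL20 (SD 0.54) are the widest, in DMSO and at 0.3 µM above all.

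The genes whose pattern over the 9 samples was most like that of CXCL8, by Pearson r of log2 CPM over 16116 genes, were KLHL18 (0.986), NAMPT (0.982), KLF10 (0.977), TFRC (0.977) and NFKBIA (0.975). For CCL20 they were NXF1 (0.972), CRK (0.970), PIK3IP1 (0.970), STAT3 (0.968) and ZC3HAV1 (0.963). All 10 of these genes were higher at 1 µM than in DMSO by less than 2-fold, from a log2 difference of 0.30 in STAT3 to 0.63 in KLF10, whereas CXCL8 and CCL20 differed by 1.31 and 2.72. Their direction follows from the choice, since CXCL8 and CCL20 were picked for being high at 1 µM, and nothing is read from it. For deviations from the group means, r ran from 0.707 for ZC3HAV1 with CCL20 to 0.938 for KLHL18 with CXCL8. These deviations are part of the values by which the 10 genes were chosen, so nothing is read from this r either.

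Of 36 other chemokine ligands, 35 were in the table and only CXCL6 and CCL28 had enough counts to be tested at 1 µM. CXCL6, a further neutrophil attractant that binds CXCR1 and CXCR2 and lies beside CXCL1, had 47, 79 and 75 counts in DMSO, 99, 74 and 91 at 0.3 µM and 181, 142 and 128 at 1 µM. It rose at 1 µM by 1.14 on the log2 scale (SE 0.19, edgeR adjusted p = 0.00108), with no overlap between 1 µM and DMSO. CCL28, a mucosal chemokine, differed by 0.52 (adjusted p = 0.310). This list and the pathway lists that follow were drawn up with earlier results of these data known, so their shares are descriptions.

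Receptors of the 10 chemokines were at or near 0 in KHM-5M where measured here. CXCR1, CXCR2, CCR6 and CX3CR1 had 0 counts in all 9 samples, CXCR3 at most 5, CCR2 at most 2 and the decoy receptor ACKR1 at most 1. Of 23 chemokine receptors listed, 5 were tested at 1 µM and 0 were called, beside 17.6% of all 15617 genes tested. Their median log2 fold change was -0.01, the same as that of all genes. By unadjusted p, 2 of the 5 were under 0.05, beside 4985 of the 15617 genes, and DESeq2 called 0. These 2 were CXCR6 (log2 -0.95, edgeR adjusted p = 0.0641) and ACKR4 (log2 -1.15, adjusted p = 0.132). Both were lower at 1 µM, with at most 36 and 26 counts in any sample. ACKR3, a scavenging receptor for CXCL12, differed by -0.01 (adjusted p = 0.972), and CCR10, a receptor of CCL28, with 87 to 130 counts in the 9 samples, by 0.08 (adjusted p = 0.788).

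Among 13 cytokines known to induce chemokines, 7 were tested and 4 rose and 1 fell at 1 µM, with a median log2 fold change of 0.72. Over all 15617 genes tested, 7.67% were called higher and 9.95% lower, with a median of -0.01. IL6 rose by 1.93 (adjusted p = 0.000127), IL1B by 1.85 (adjusted p = 6.3e-06), IL1A by 1.42 (adjusted p = 5.4e-05) and TNF by 0.72 (adjusted p = 0.000601). IL1B had 145, 135 and 122 counts in DMSO, 282, 167 and 151 at 0.3 µM and 627, 435 and 418 at 1 µM. IL6 had 61, 59 and 33 counts in DMSO, 121, 55 and 57 at 0.3 µM and 272, 145 and 176 at 1 µM. In both, replicate 1 was the highest sample at either dose.

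LTB, the lymphotoxin that anchors lymphotoxin alpha at the membrane, fell by 0.82 on the log2 scale (adjusted p = 0.0494), a call that was lost without any 1 of the 6 libraries. At 0.3 µM none of the 7 was called. IL1B had the smallest unadjusted p there, 0.0122, with a log2 fold change of 0.55 and an adjusted p of 0.995.

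Of 23 transcription factors and inhibitors of the NF-κB, AP-1, C/EBP and STAT routes, all were tested and 17 rose and 0 fell at 1 µM, beside 7.67% and 9.95% of all genes, with a median log2 fold change of 0.465 beside -0.01 for all genes. The AP-1 subunit FOS rose by 0.98 (adjusted p = 0.00719), NFKBIE, an inhibitor of NF-κB that is itself a target of it, by 0.90 (adjusted p = 0.000161), and JUNB by 0.83 (adjusted p = 9.5e-06). CEBPD rose by 0.78 (adjusted p = 1.4e-05) and FOSL1 by 0.71 (adjusted p = 2.5e-05). The NF-κB subunits NFKB1, RELB, RELA and NFKB2 rose by 0.61, 0.60, 0.31 and 0.25, and REL differed by 0.07 and was not called (adjusted p = 0.792). At 0.3 µM none of the 23 was called and 22 had a log2 fold change above 0, with a median of 0.13. This list too was drawn up with earlier results of these data known.

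Of 32 cytokine receptors and adaptors, 30 were tested, and 9 rose and 0 fell at 1 µM (7.67% and 9.95% of all genes), with a median of 0.22 beside -0.01 for all genes. TLR3, the receptor for double-stranded RNA, was the only called one past 1.5-fold (log2 0.92, adjusted p = 0.0387, on 17 to 28 counts in DMSO and 32 to 50 at 1 µM), and with DESeq2 its adjusted p was 0.0845. Its call was also lost without replicate 1 or 3 of DMSO or replicate 1 or 2 of 1 µM, at log2 values of 0.78 to 0.90. IL1R1, the receptor of interleukin-1, rose by 0.49 (adjusted p = 0.0143) and the adaptor MYD88 by 0.31 (adjusted p = 0.0277). TNFRSF1A, the main receptor of TNF, differed by 0.06 (adjusted p = 0.546).

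Of the 13 factors of AU-rich mRNA decay, 2 rose and 2 fell at 1 µM, with a median of 0.07. That is 15.4% in each direction, beside 7.67% of all genes called higher and 9.95% called lower. ZC3H12A (regnase-1), an endonuclease that degrades inflammatory mRNAs and is induced with them, rose by 0.76 (adjusted p = 5.4e-05) and the kinase MAPKAPK2 by 0.17 (adjusted p = 0.0415). TIA1 and TIAL1, translational silencers that bind AU-rich elements, fell by 0.46 (adjusted p = 0.00114) and by 0.39 (adjusted p = 0.00410).

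Of 17 genes for shedding, trimming or presenting the ligands, 15 were tested, and 4 rose and 0 fell, beside 7.67% and 9.95% of all genes, with a median of -0.01, as over all genes. SDC4, a heparan sulfate proteoglycan, rose by 0.37 (adjusted p = 0.000478), NDST1, which sulfates heparan chains, by 0.27 (adjusted p = 0.00532) and MMP2 by 0.45 (adjusted p = 0.0227). The other 11 were not called. Among them, ADAM10 differed by -0.01 (adjusted p = 0.963), ADAM17 by 0.13 (adjusted p = 0.227), ANPEP by -0.01 (adjusted p = 0.940) and DPP4 by 0.54 (adjusted p = 0.0825). TNFAIP6, which binds CXCL8, had an adjusted p of 0.04998 and a log2 fold change of 1.57, but 78 counts in replicate 1 of 1 µM and 17 and 22 in the others. Without that library its log2 fold change was 0.64 and its adjusted p 0.379, and the call was also lost without replicate 1 (adjusted p = 0.0620) or replicate 3 (adjusted p = 0.168) of DMSO.

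**Figure D5:**
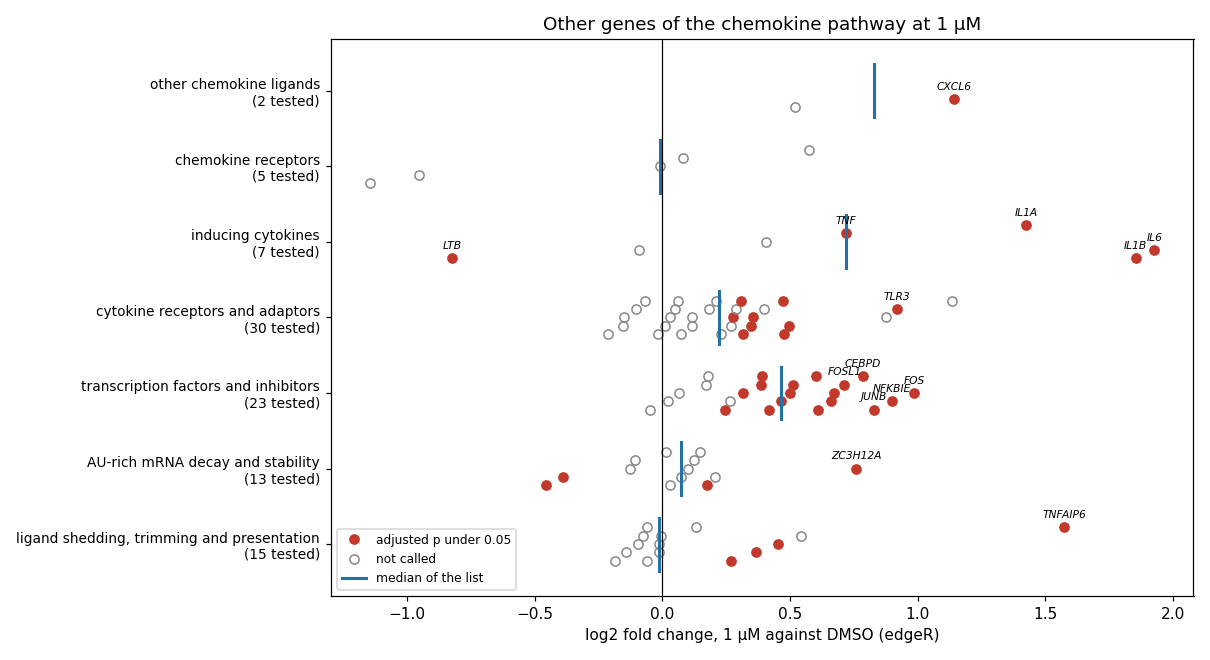
Log2 fold change at 1 µM against DMSO of each tested gene in the 7 pathway lists, 1 point per gene, with called genes (adjusted p under 0.05) marked and the median of each list drawn. Points of the transcription factor list lie mostly above 0 (17 of 23 called, median 0.465), and none of the 5 chemokine receptors is called.

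Taken as 1 list of 157 genes, 95 of the pathway genes were tested at 1 µM, and 37 rose and 3 fell, or 38.9% and 3.16%, beside 7.67% and 9.95% of all genes, with a median log2 fold change of 0.21. At 0.3 µM 0 of 95 were called, 12 by unadjusted p, and DESeq2 called 0. Between 0.3 µM and 1 µM 21 rose and 1 fell, or 22.1% and 1.05%, beside 5.85% and 6.75% of all 15583 genes. Because the lists were drawn up with earlier results of these data known, these shares are a description and no enrichment is read from them. On the other strand, IL6 overlaps STEAP1B, JUNB overlaps HOOK2, RELA overlaps AP001362.2, CCR10 overlaps CNTNAP1 and CXCR6 overlaps FYCO1. Also on the other strand, ADAM10 overlaps AC018904.1, and ADAM17 overlaps IAH1 and AC080162.1. TIA1 overlaps C2orf42 on its own strand. KRT8 and KRT18 overlap each other, and PAX8 overlaps PAX8-AS1. Since the use of strand in counting is not stated, reads of such partners cannot be told apart. None of the 10 chemokine genes overlaps another gene of 10 or more mean counts on either strand.

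Of the 6 higher genes, 5 are on the long arm of chromosome 4 (GRCh38), CXCL8 at chr4:73740506-73743716, CXCL1 at chr4:73869393-73871242, CXCL5 at chr4:73995642-73998779, CXCL3 at chr4:74036589-74038807 and CXCL2 at chr4:74097035-74099293. CCL20 is at chr2:227805739-227817564. CXCL10 lies farther along chromosome 4 at chr4:76021117-76023497, CCL2 at chr17:34255218-34257203 and CCL5 at chr17:35871491-35880793 are on chromosome 17, and CX3CL1 is at chr16:57372458-57385048.

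Within 500 kb of the 10 genes lay 106 other protein-coding genes, of which 44 were tested and 5 rose and 3 fell at 1 µM. That is 18.2% called, beside 17.6% of all genes in either direction. In the chromosome 4 cluster, CXCL6, 20.3 kb from CXCL1, and EREG, the EGF receptor ligand epiregulin, 265.8 kb from CXCL2, rose. EREG had 54, 63 and 55 counts in DMSO, 60, 67 and 60 at 0.3 µM and 189, 145 and 138 at 1 µM, a log2 fold change of 1.43 (SE 0.16, adjusted p = 6.2e-05). The neighbouring ligand gene AREG differed by 0.91 (adjusted p = 0.0963) and was not called. Nor were MTHFD2L, 14.9 kb from CXCL2 (log2 0.11, adjusted p = 0.598), and ANKRD17, 481.7 kb from CXCL8 (log2 0.11, adjusted p = 0.212).

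SDAD1, near CXCL10, rose by 0.33, and CIAPIN1 and ADGRG1, near CX3CL1, by 0.25 and 0.45. The Schlafen genes SLFN13 and SLFN11 and the GTPase gene RASL10B, all near CCL5, fell by 0.70, by 0.20 and by 0.94 on the log2 scale. Adjusted p-values of these 6 ran from 9.5e-06 in SLFN13 to 0.0474 in SLFN11. CCL20 had 4 tested neighbours, of which 0 were called by edgeR.

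Markers of other cell types that make chemokines were measured beside these values. The 9 leukocyte markers summed to 0.400 to 1.06 FPKM in DMSO, 0.785 to 1.48 at 0.3 µM and 1.28 to 1.76 at 1 µM. Of these 9, 5 had at most 3 counts in every sample, among them the defining marker PTPRC (CD45) with at most 1 count and MS4A1 with 0. CD14 had 8 to 21 counts in DMSO and at 0.3 µM and rose to 30 to 37 at 1 µM (log2 1.07, adjusted p = 0.048). The 3 endothelial markers summed to 0.322 to 0.432 FPKM in DMSO and 0.222 to 0.326 at 1 µM, and the 5 fibroblast markers to 49.1 to 66.5 and 43.0 to 48.5 FPKM. The fibroblast markers PDGFRB and COL1A1 fell by 0.48 (adjusted p = 0.000773) and by 0.41 (adjusted p = 0.0132) on the log2 scale. LUM went the other way by 0.33 and was not called (adjusted p = 0.11). COL3A1 had at most 6 counts and DCN at most 8 in any sample. Their part in the chemokine values was not tested.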

How the data were processed

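RNA-seq libraries were made from poly-A RNA of KHM-5M cells in 3 groups of 3 samples. The authors aligned reads to GRCh38 with HISAT2 and deposited a gene count and an FPKM (fragments scaled by gene length and library size) for each sample. The submitters' processing notes name HISAT2 2.0.5, featureCounts 1.5.0-p3 and DESeq2 1.20.0, whereas the study's methods name HTSeq as the counter and 2 biological replicates per condition where the labels give 3. Whether strand was used in counting is not given in the sources used here. The deposited columns of the authors' own comparisons were not used.

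Counts were tested with edgeR 4.0.16 in R 4.3.3 (quasi-likelihood test, TMM scaling, filterByExpr with a minimum count of 10, only the groups compared in each fit), and p-values were adjusted by Benjamini-Hochberg over all genes tested. A call is an adjusted p under 0.05. Levels between genes were compared in FPKM. On simulated counts for 1 µM against DMSO, 86 of 100 genes changed by 1 on the log2 scale and 99 of 100 changed by 2 were called. Beside these true calls there were 18 false calls among 15364 genes. At 0.3 µM 84 and 100 of 100 were called, with 10 false calls. The changed genes were drawn only from those with a mean over 1 CPM, so these shares do not cover genes at lower levels. Precision is limited by depth, and limits from counts of 0 cover counting error only.

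The 10 genes, the pathway lists and the markers were chosen with earlier results of these data known. The genes named are the 10 members, any detected receptor of theirs, up to 5 genes per list called with over 1.5-fold change (further list genes as background members), the 5 genes most like CXCL8 and CCL20, and called neighbours within 500 kb. NFKB1, NFKB2, REL, RELA, RELB, IL1R1, MYD88, MAPKAPK2, TIA1, TIAL1, SDC4, NDST1, MMP2, AREG, CD14, PDGFRB, COL1A1 and LUM fall partly outside it and were chosen after their values were seen. The same holds for CXCR6, ACKR4, ADAM10, ADAM17, ANPEP, DPP4, MTHFD2L and ANKRD17. Alternatives were DESeq2, RLE size factors, a minimum count of 1, all 9 samples in 1 fit, the replicate number as a block, CXCL1, CXCL2 and CXCL3 summed, and each library left out in turn.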

Additional observations from a re-analysis of the deposited data

How the results depend on the processing

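At 0.3 µM 0 of the chemokine genes were called with DESeq2, RLE size factors, a minimum count of 1, all 9 samples in 1 fit, CXCL1, CXCL2 and CXCL3 summed, and any library left out. The pathway lists had 40 calls at 1 µM, 31 to 41 with a library left out, 0 at 0.3 µM, and 22 between doses, 18 to 26. Deviations of same-numbered samples had correlations from -0.022 to 0.082, and those of differently numbered samples from -0.069 to 0.038. At 0.3 µM the replicate block gave 1004 genes with an unadjusted p under 0.05 (edgeR), beside 594 without it, and 1 call over all genes. The correlations were small and do not settle whether the numbers pair the samples. With the replicate block the chemokine calls at 0.3 µM were 0, the pathway calls at 1 µM 35 and the neighbouring genes' calls 5, from 8 (5 to 9 with a library left out, 5 without any 1 of the 1 µM libraries), and the cause was not tested.

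With a library left out, log2 fold changes at 0.3 µM crossed 0 for genes that were not called: CXCL1 (-0.0055 to 0.16), CXCL2 (-0.067 to 0.11), CXCL3 (-0.020 to 0.22), CXCL5 (-0.037 to 0.14), CCL5 (-0.53 to 0.26) and CX3CL1 (-0.39 to 0.052). At 1 µM CXCL8 ranged from 1.11 to 1.43 and CCL20 from 2.46 to 3.31. The call of LTB was lost with DESeq2 (adjusted p = 0.142), with RLE and with the block, and that of TNFAIP6 in the fit of all 9 samples (adjusted p = 0.127). Depth limits CCL20, CCL5, CX3CL1, CXCL10 and CCL2, whose counts in DMSO were at most 31.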
